A study of Drosophila melanogaster with 3 samples.

Results

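The strongest regions bound by tagged CG5180 protein in Drosophila melanogaster embryos were 313 peaks of the 5400 in the reproducible (IDR, irreproducible discovery rate) peak list on genome build dm6. They were chosen by their signal value, the score that the authors' peak caller gave each peak, which had to be 2000 or more. They are called strong peaks here, and the other 5087 peaks of the same list are the rest. All come from 1 group, whole embryos of mixed sex aged 0 to 16 h from a transgenic line that stably carries CG5180 with eGFP at its C-terminus, sampled as 3 biological replicates. The antibody was directed against GFP, per the library descriptions, whereas the antibody label names CG5180, and chromatin was sonicated to 200 to 800 bp. The expression level of the fusion protein and the state of the untagged gene are not given in the labels. Neither an untagged line nor a control library was analysed here, so regions recovered with any GFP antibody cannot be told apart from CG5180 binding. Whole embryos mix many cell types and stages, and more cells with a bound region cannot be told apart from more binding per cell.

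CG5180 is a gene still known by its annotation number. In chromatin immunoprecipitation followed by sequencing (ChIP-seq), a protein is cross-linked to DNA, the chromatin is sheared and the precipitated fragments are sequenced, so that a peak marks DNA recovered with the protein and its summit marks the likeliest position of contact. Regulatory proteins of the fly embryo bind mainly at promoters, next to transcription start sites (TSSs), and at enhancers, many of which lie in introns and between genes. DNA-binding proteins of this kind often recognise a short sequence word, which can recur several times within one regulatory region.

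The sequence around the strong summits was searched for such words, and the word CGAAC, with its reverse complement GTTCG, recurred at many of them. The 151 bases around a summit are printed here for 10 peaks, so that the arrangement of the word can be seen; every copy of CGAAC or GTTCG is in capitals, and all else is in lower case. They were taken from the reference genome of release 6 (RefSeq), on the plus strand, 5′ to 3′. All but the last pair come from those of the strong peaks whose window holds no annotated exon. The first 6 are the windows with the most copies among 146 candidates. They lie in an intron of Smr, which encodes a corepressor (chrX:12716049-12716199), at ab, which encodes a zinc finger transcription factor (chr2L:11210496-11210646), upstream of each of 2 TSSs of daw, which encodes an activin-like ligand (chr2L:2804807-2804957 and chr2L:2808115-2808265), at the integrin gene mew (chrX:13257189-13257339) and near mtSSB (chr3R:16207303-16207453).
Smr intron: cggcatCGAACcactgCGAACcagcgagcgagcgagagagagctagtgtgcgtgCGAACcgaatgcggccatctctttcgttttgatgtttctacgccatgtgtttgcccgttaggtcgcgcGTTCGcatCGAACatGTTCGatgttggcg
ab: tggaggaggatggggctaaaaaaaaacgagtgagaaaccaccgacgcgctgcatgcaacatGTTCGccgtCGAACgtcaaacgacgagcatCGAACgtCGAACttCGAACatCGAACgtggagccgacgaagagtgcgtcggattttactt
daw, 379 bp upstream of a TSS: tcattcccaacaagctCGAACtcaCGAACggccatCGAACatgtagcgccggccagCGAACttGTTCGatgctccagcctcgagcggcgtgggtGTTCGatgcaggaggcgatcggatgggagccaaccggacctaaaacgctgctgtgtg
daw, 132 bp upstream of a TSS: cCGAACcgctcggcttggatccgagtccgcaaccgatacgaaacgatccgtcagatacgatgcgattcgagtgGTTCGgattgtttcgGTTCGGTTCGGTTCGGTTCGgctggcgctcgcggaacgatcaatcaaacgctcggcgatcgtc
mew: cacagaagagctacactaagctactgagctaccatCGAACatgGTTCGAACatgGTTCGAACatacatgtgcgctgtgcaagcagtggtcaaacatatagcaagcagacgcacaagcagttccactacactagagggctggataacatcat
mtSSB: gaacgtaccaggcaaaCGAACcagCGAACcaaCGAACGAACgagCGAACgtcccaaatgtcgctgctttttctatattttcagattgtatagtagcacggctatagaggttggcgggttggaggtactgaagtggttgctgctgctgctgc
The windows at Smr, ab and daw hold 6 copies each, and those at mew and mtSSB hold 5. In the window at mew the word overlaps its own reverse complement in 2 places (GTTCGAAC), and the window with its summit 132 bp upstream of a daw TSS holds a tandem run of 4 copies. The next pair are the strongest candidates with no copy in the window, at sgl (chr3L:6964879-6965029) and net (chr2L:87505-87655). Their GC content is 26.5% and 25.2%, against 47.0% to 59.6% in the 6 windows above.
sgl: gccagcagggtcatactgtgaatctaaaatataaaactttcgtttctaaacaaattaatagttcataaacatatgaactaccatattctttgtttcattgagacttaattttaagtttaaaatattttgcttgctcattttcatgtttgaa
net: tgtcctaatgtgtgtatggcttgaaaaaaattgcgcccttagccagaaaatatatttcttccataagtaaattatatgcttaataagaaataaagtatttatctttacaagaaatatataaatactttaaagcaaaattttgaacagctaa
The last pair come from just below the signal value of 2000, at CG13390 (chr2L:8376806-8376956, signal value 1996) and near CG43245 (chr3L:10738501-10738651, signal value 1988), with 1 and 2 copies.
CG13390: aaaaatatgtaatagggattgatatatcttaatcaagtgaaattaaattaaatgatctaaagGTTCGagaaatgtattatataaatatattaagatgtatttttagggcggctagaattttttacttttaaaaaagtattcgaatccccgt
CG43245: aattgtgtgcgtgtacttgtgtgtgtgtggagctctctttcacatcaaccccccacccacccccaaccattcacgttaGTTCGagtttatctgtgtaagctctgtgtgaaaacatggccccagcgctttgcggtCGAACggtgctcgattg

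The strong peaks held most of the signal of the list. They were 5.8% of its peaks and 57.7% of its summed signal value, and their signal values ran from 2024 to 50504 with a median of 5488 (quartiles 3075 and 12556), against a median of 302.7 (182.0 to 1998) in the rest. These values chose the peaks and are given as a description. In all 103 peaks reached 10000 and 31 reached 20000, while 118 lay between 2000 and 4000. The list has no gap at 2000. The 5 members just inside it were at or near Pal1 (2083), sbb (2066), CG32198 (2042), Art3 (2038) and Fur1 (2024), and the 5 peaks just outside it were at or near CG45075 (1998), CG11309 (1997), CG13390 (1996), CG43245 (1988) and otk2 (1968). The −log10 q-value did not separate the strong peaks among themselves, since all 313 were tied at 3.88, a value shared by 3470 of the rest (68.2%).

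The replicates held largely the same strong regions. A summit within 200 bp of the strong summit was among the own strongest 313 peaks of replicate 1 for 306 members (97.8%), of replicate 2 for 296 (94.6%) and of replicate 3 for 300 (95.8%). In all, 285 members were there in all 3 replicates, 20 in 2, 7 in 1 and 1 in none. The replicate lists entered the making of the IDR list, so this recovery was partly built in. The lowest rank that any strong summit took was 325 in replicate 1, 364 in replicate 2 and 350 in replicate 3, so matched members outside the strongest 313 lay close to the edge. The exception was a summit near Trim9 (signal value 3959), which had no match within 200 bp in replicates 1 and 2 and ranked 193 in replicate 3. Its interval (chr2L:10543572-10545599) holds another strong summit, with a signal value of 9659.

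Signal values are not scaled between lists, and their median over each replicate's own strongest 313 peaks was 2300, 1944 and 1416 in replicates 1, 2 and 3. The strongest peak, near CG34460, had signal values of 22709, 15820 and 12187 in replicates 1, 2 and 3, and sgl, which encodes UDP-glucose dehydrogenase, had 21142, 16783 and 11597. Egfr, the epidermal growth factor (EGF) receptor gene, had 19388, 15526 and 11898. These 3 peaks held ranks 1 to 4 in every replicate and changed places only with each other and with the intronic Smr peak. The closest agreement in rank was at CG13921, which was 7 in each replicate, and at CG15239, which was 162 in each, followed by CG30269, CG31249 and CDase. Among the members with the largest spread of ranks, as the ratio of the highest to the lowest, were mthl14, a methuselah-like receptor gene, with ranks 304, 167 and 271, and CG42394, with ranks 31, 17 and 23. The others were sgl, Egfr and the CG34460 peak, where a change by 1 place is a large ratio. Each replicate's own strongest 313 peaks held 58.7%, 54.9% and 56.0% of the summed signal of its strongest 5400 (56.5% ± 1.99, SD, n = 3).

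Strong peaks were wide. Their median width was 1124 bp (359 to 3377, quartiles 791 and 1634), against 464 bp in the rest. Width and signal value come from the same calls, so the widths are given without a test. The width of 464 bp was the commonest of the list, and 0 of 313 strong peaks measured exactly that, against 3304 of 5087 in the rest (64.9%). Of the strong peaks 187 (59.7%) were 1000 bp wide or more, against 68 of the rest (1.34%). Width did not decline evenly along the list. Cut into blocks of 313 by rank, the list had block medians of 1124, 425, 309, 255, 242 and 272 bp in the first 6 blocks, and 464 bp from there on. Among the strong peaks, the median width was 745.5 bp for signal values of 2000 to 4000, 1065 bp for 4000 to 8000, 1530 bp for 8000 to 16000 and 1611 bp above that, and Spearman's rank correlation between signal value and width was 0.62 (n = 313 peaks, which share libraries and a caller).

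**Figure D1:**
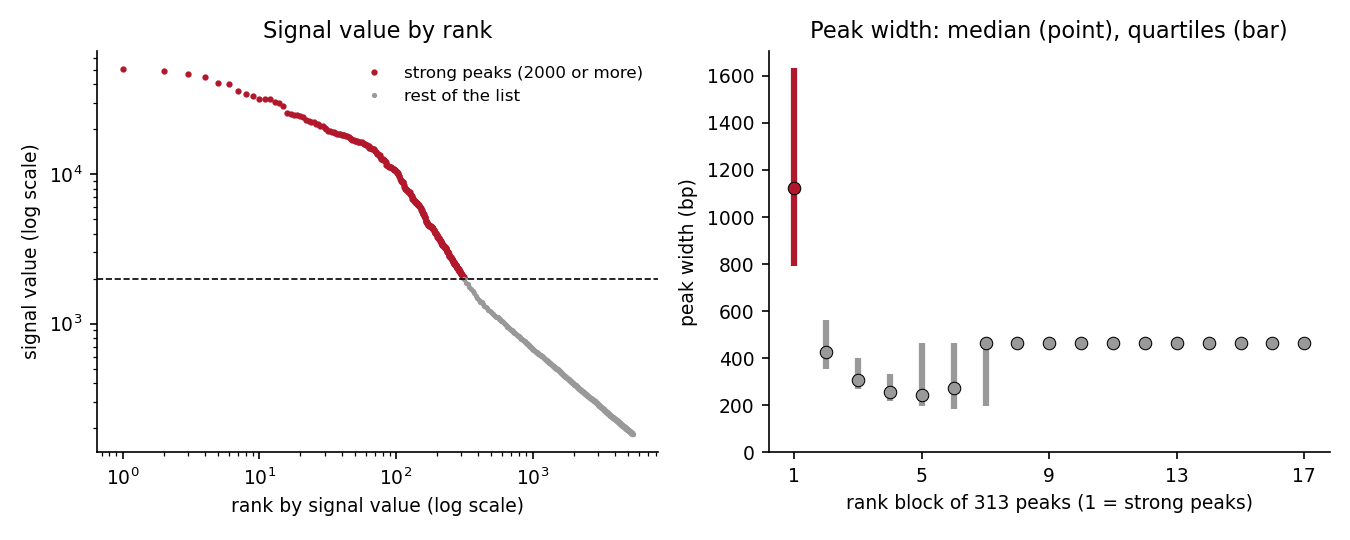
Signal value against rank for all 5400 peaks of the IDR list, both on log scales (left), and peak width in bp by rank block of 313 peaks, with medians as points and quartiles as bars (right). The 313 strong peaks run from 50504 down to 2024 with no gap at the threshold, and their median width of 1124 bp stands above the medians of the other blocks, which lie between 242 and 464 bp.

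The same widths were seen in each replicate. The median width of the strongest 313 peaks was 1057 bp in replicate 1, 1072 bp in replicate 2 and 919 bp in replicate 3 (1016 ± 84.3 bp, SD, n = 3), against 470, 484 and 456 bp in the next 5087. On the older build dm3, 312 of 4931 peaks of the IDR list reached 2000, with a median width of 1117 bp against 464 bp for the rest of that list. The widest strong peak covered 3377 bp of the gene tara, a member of the trithorax group (chr3R:16234184-16237560, signal value 4582). It was followed by an interval of 3351 bp that holds the summits of both CG4004 and Smr (signal values 10995 and 17021), and by an interval of 3322 bp in Tlk, the Tousled-like kinase gene, also with a pair of strong summits (7906 and 3775). The narrowest strong peaks were all at promoters, at PNPase (359 bp), CG18549 (366 bp), mRpL41 (375 bp), Art3 (377 bp) and CG14100 (396 bp), and all had signal values from 2038 to 3058.

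Since intervals overlap, the 313 strong peaks formed 279 separate regions, which together cover 0.337 Mb. Of these regions 249 held 1 strong summit, 26 held 2 and 4 held 3. The 4 regions with 3 strong summits lie at grh, which encodes the transcription factor Grainyhead, near CG43245, at the cell adhesion gene ed and at CG31871. In the grh region (2533 bp, chr2R:17821887-17824419) the 3 strong summits had signal values of 21484, 6157 and 3005. A further 90 peaks of the rest overlapped a strong region.

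Strong summits lay at promoters more often than the rest, and in introns less often. A promoter summit was one within 250 bp of a protein-coding TSS. Of 313 strong summits 162 were at promoters (51.8%, Wilson 95% interval 46.2 to 57.2), against 1514 of 5087 in the rest (29.8%, 28.5 to 31.0). The odds ratio was 2.53 (two-sided Fisher's exact test, Benjamini-Hochberg (BH) p over 4 feature classes = 1.13e-14). Introns held 68 strong summits (21.7%, 17.5 to 26.6), against 2264 of the rest (44.5%, 43.1 to 45.9), with an odds ratio of 0.346 (exact BH p = 1.78e-15). The shares between genes (19.5% against 18.7%, exact BH p = 0.946) and in exons (7.03% against 7.04%, exact BH p = 1) stayed short of the threshold. These tests compare peaks within pooled data, and peaks are not replicates.

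Among summits outside promoters alone, introns held 68 of 151 strong summits (45.0%) and 2264 of 3573 others (63.4%), with an odds ratio of 0.474 (exact p = 9.69e-06, Fisher's test). Each replicate's own strongest 313 peaks gave promoter shares of 51.4%, 52.7% and 50.8% (51.7% ± 0.976, SD, n = 3), against 28.6%, 30.8% and 32.6% in its next 5087 (30.7% ± 2.00). The intron shares were 22.4%, 20.8% and 20.4%, against 45.4%, 43.8% and 43.0%. The difference was in the same direction in 3 of 3 replicates for both features. The strongest peaks are largely the same regions in each replicate, so this agreement was largely built in. The promoter share also varied among the strong peaks themselves, with 44.1% for signal values of 2000 to 4000, 46.8% for 4000 to 8000, 57.6% for 8000 to 16000 and 68.4% (55.5 to 79.0) for 16000 or more. Set beside only the next 313 peaks in rank, the promoter share of 51.8% in strong peaks against 45.4% did not pass the threshold (log2 odds ratio 0.37, exact BH p = 0.257), while the intron share still did (21.7% against 31.3%, BH p = 0.0341).

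**Figure D2:**
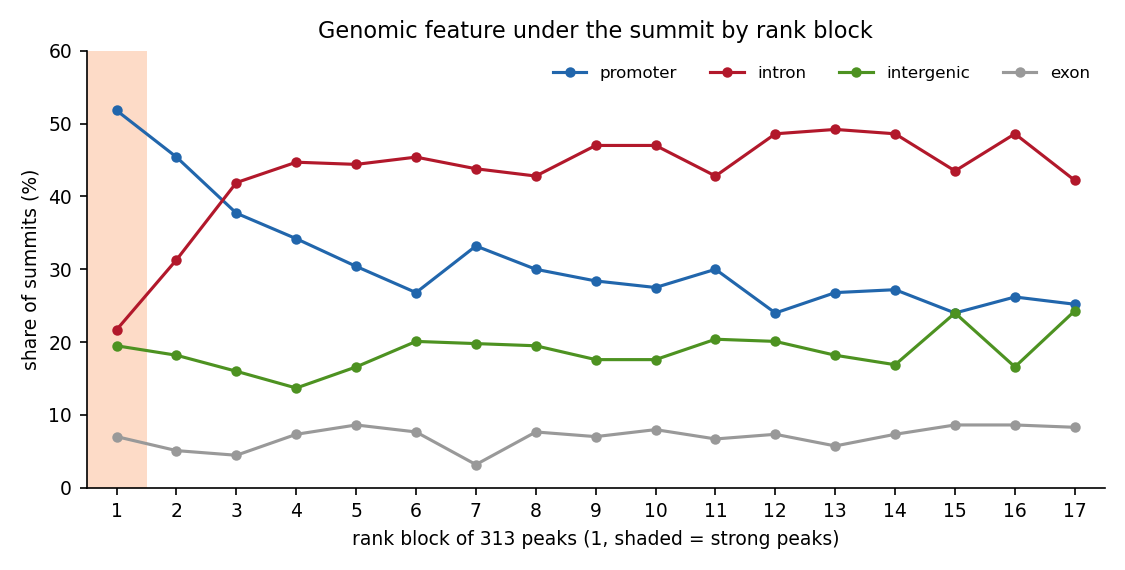
Share of summits in % at promoters, in introns, between genes and in exons for consecutive blocks of 313 peaks by rank, with block 1, the strong peaks, shaded. The promoter share is 51.8% in the strong peaks and between 24.0% and 45.4% in the other blocks, while the intron share is 21.7% in the strong peaks and between 31.3% and 49.2% in the other blocks.

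The few strong summits in exons included a peak in the 3′ UTR of REG, which encodes a proteasome activator (signal value 32061), a summit in the 5′ UTR of orb, which encodes a translational regulator of the CPEB family (10792), and a summit in coding sequence of btsz (14817). In all, 2 strong summits lay in 5′ UTRs, 3 in 3′ UTRs, 5 in coding sequence and 12 in other exons. The strongest intronic summits were in Smr (44509), grh (21484), the chitinase gene Cht7 (19296), kek5 (19091) and Ggt-1, where the nearest TSS was that of the ligand gene Wnt5 (18378). Genes that host intronic strong summits were long, with a median of 42381 bp (n = 65 summits with a protein-coding host), against 27056 bp for the hosts of the rest (n = 2236). Strong summits between genes had a median distance of 1865 bp to the nearest protein-coding TSS, against 2803 bp in the rest. Those with the highest signal were near CG34460 (50504), CG3655 (31711), the fibroblast growth factor (FGF) gene pyr (31602), the zinc finger gene chn (25424) and dnt, which encodes a receptor of the Ryk family (21490).

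Within promoters, strong summits lay just upstream of the TSS. Of 162 strong promoter summits 127 (78.4%) were upstream, against 948 of 1514 (62.6%) in the rest. The 100 bp before the TSS held 42 summits at 50 to 100 bp and 41 within 50 bp, or 25.9% and 25.3% of the strong promoter summits, against 12.7% and 14.1% in the rest. More than 50 bp downstream of the TSS lay 8 of the 162. These positions are given as a description. A TSS is the annotated start, and which start the embryo uses at each gene was not measured.

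**Figure D3:**
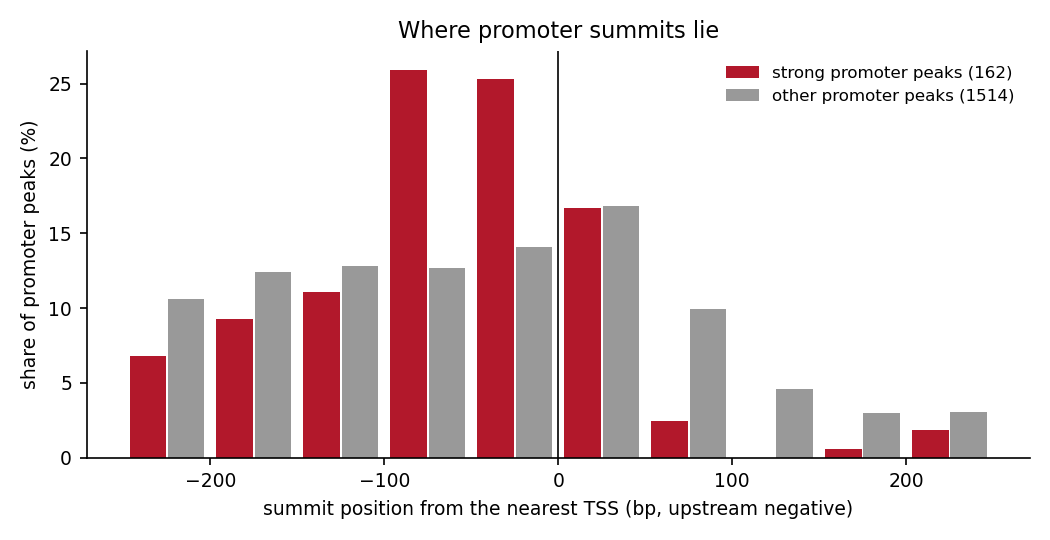
Share in % of promoter summits by distance from the nearest protein-coding TSS in bins of 50 bp, upstream negative, for 162 strong peaks and 1514 peaks of the rest. The 2 bins just upstream of the TSS hold 25.9% and 25.3% of strong promoter summits, against 12.7% and 14.1% in the rest.

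Strong promoters were seldom shared by genes that run apart from a common start. A promoter was called divergent when a protein-coding TSS of another gene lay within 500 bp on the other strand and was transcribed away. This held for 10 of 162 strong promoter summits (6.17%, Wilson 95% interval 3.39 to 11.0), against 327 of 1514 in the rest (21.6%, 19.6 to 23.7), and the odds ratio was 0.239 (exact p = 3.00e-07, Fisher's test). In each replicate's own peaks the shares were 5.59%, 4.85% and 6.29% (5.58% ± 0.721, SD, n = 3), against 20.7%, 22.8% and 25.5% (23.0% ± 2.42). The next 313 peaks in rank had 27 of 142 divergent (19.0%). The 10 strong divergent promoters were those of Axn with the ribosomal protein gene RpS28a (signal value 23117), orb with Cdc16 (17275), ko with ICA69 (16833), Nle with the splicing factor gene Sf3b1 (16457), CG5013 with IKKbeta (7609), and bbg, myd, fy, Pal1 and Art3, whose signal values lay between 2038 and 3340. Of all 313 strong summits, 151 had no protein-coding TSS within 250 bp, 151 had that of 1 gene and 11 had those of 2.

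The strong summits marked few genes of the genome. Of 13945 protein-coding genes, 164 had a strong summit within 250 bp of a TSS (1.18%), and 1675 had any summit of the IDR list there (12.0%). Genes with a strong summit at a TSS were long, with a median of 18840 bp, against 4717 bp for the 1511 genes bound only by the rest and 1992 bp for the 12270 with no summit. In what follows, 34 lists of genes with known roles are described by how many members had a strong summit at a TSS, beside that background of 1.18%. The lists were chosen with earlier results of these data known, so a share above the background may be partly built in. No test was made on the lists, and signal values are those of the peaks.

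Genes of receptor tyrosine kinase signalling carried several of the strong peaks. This signalling starts when an extracellular ligand meets a receptor kinase and relays through Ras and MAP kinase to transcription factors. Of 12 EGF receptor genes, 3 had a strong summit at a TSS, among them the receptor gene Egfr (46620) and vn, which encodes a secreted ligand of the neuregulin type (14649). The values at vn were 6341, 4890 and 3562 in replicates 1, 2 and 3. The gene ru, which encodes an intramembrane protease, lies within the span of the tyrosine phosphatase gene Ptp61F, and a region in its intron had strong summits at 3539 and 2173 bp from the ru TSS (15860 and 3285). In the FGF pathway, the ligand gene pyr had a strong summit at its TSS (18650) and another 1910 bp away (31602), which gave 14285, 9585 and 7879 in the replicates. The neighbouring ligand gene ths had a strong summit 318 bp from a TSS (chr2R:11789429-11790869, 11390). Another lay 949 bp from a different TSS of ths (chr2R:11755370-11756146, 2616). Of the 6 FGF genes of the list only pyr had a strong summit at a TSS, while all 6 had some summit of the IDR list there. Downstream of the receptors, 1 of 11 genes of the Ras and MAP kinase relay did, aop, which encodes the Ets repressor Yan (2129).

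Strong summits at the TSSs of Wnt genes lay at the ligand genes Wnt5 and Wnt2 and at the gene of a cytoplasmic regulator. Of 19 genes in the Wnt list, 3 had a strong summit at a TSS, namely Axn, a scaffold of the complex that degrades β-catenin (23117), and the ligand genes Wnt5 (5734) and Wnt2 (2557). A second strong region lay 1778 bp from the Wnt5 TSS (18378), with values of 8005, 6204 and 4266 in the replicates. The other genes of the list, among them further ligand genes and the receptor genes fz, fz2 and arr, had no strong summit at a TSS. Outside the list, and chosen after their values were seen, a pair of the receptor genes of the Ryk family had strong peaks nearby, whereas Drl-2, also of this family, was the nearest gene of no strong peak. They were dnt, with a summit 539 bp from its TSS (21490), and drl, which encodes the Wnt5 receptor Derailed (14986 at the promoter). The Hedgehog, BMP and TGF-β, Notch, and JAK-STAT lists had no strong summit at a TSS, with 0 of 9, 0 of 13, 0 of 11 and 0 of 8. Any summit of the IDR list lay at a TSS of 2, 5, 5 and 2 of these genes. The activin-like ligand gene daw, which is not in the TGF-β list, had a strong summit at a TSS (2314). Some genes of these lists had strong peaks away from a TSS: mam, which encodes the Notch coactivator Mastermind, had 4 strong regions in its introns, and ptc, the Hedgehog receptor gene, had the nearest TSS to a summit 5257 bp away (2413).

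The lists of adhesion, heparan sulfate and kekkon family genes each had 1 gene with a strong summit at a TSS. They were mew, which encodes an integrin α subunit (40154), sgl, whose enzyme supplies the sugar for heparan sulfate (49261), and kek5, a leucine-rich repeat and immunoglobulin receptor gene (34226). The values at mew were 17351, 12640 and 10319 in the replicates, and those at kek5 were 14545, 11498 and 8426. The lists held 19 adhesion, 12 heparan sulfate and 6 kekkon family genes. The muscle gene sns, which encodes an adhesion receptor of myoblast fusion, had a strong summit at its TSS (2347) and another 916 bp away (4745). Its partner genes kirre and rst share a long locus, and kirre hosted 3 strong regions, one of them at the rst promoter (16178). None of 16 axon guidance genes had a strong summit at a TSS, and of 32 genes of the dpr and DIP receptor family DIP-zeta did (3020). Of 12 potassium channel genes, KCNQ did (22275).

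Among the transcription factor genes of the patterning, neural, ecdysone and clock lists, those with a strong summit at a TSS were vri, a bZIP repressor gene of the circadian clock (24672), grh (6157), pros, which encodes the homeodomain protein Prospero (2511), Dfd, a Hox gene of the head (2695), and ftz-f1, a nuclear receptor gene (2494). Others outside the lists had one too, such as net, ab, ara, caup and ich, with signal values of 40750, 14319, 8025, 3315 and 7798. The value at vri was 10696, 8353 and 5812 in replicates 1, 2 and 3. Among the early patterning lists, 0 of 16 dorsoventral, 0 of 14 gap and head (without nos) and 0 of 7 pair-rule genes (without h) had one, and 1 of 11 Hox genes and cofactors did. Of 16 proneural and neuroblast genes 2 did, and of 11 ecdysone response genes 1 did. In the trithorax list, tara did (2329), whereas none of 14 Polycomb genes and 12 insulator genes did, although a strong intronic summit lay 1533 bp from the TSS of Trl, the GAGA factor gene (2840), and another 458 bp from that of the Polycomb gene ph-p (2192).

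The share of housekeeping genes with a strong summit at a TSS lay near or above the background of 1.18% in some lists (1.1% of cytosolic and 2.74% of mitochondrial ribosomal protein genes, and 7.69% of glycolysis genes, which is 1 gene) and was 0 in others. Of 91 cytosolic ribosomal protein genes 1 had a strong summit at a TSS, RpS28a, which shares its promoter with Axn, and 57 had any summit of the IDR list there. Among 73 mitochondrial ribosomal protein genes the strong ones were mRpL41 (2248) and mRpS10 (2038), and among 13 glycolysis genes Gapdh2 (2505). These 3 peaks were 375, 377 and 423 bp wide, among the narrow members. None of 48 proteasome, 76 oxidative phosphorylation, 13 chaperone and 9 elongation factor genes had a strong summit at a TSS, and neither did any of 179 chemoreceptor and 119 cuticle protein genes. The tagged gene itself was not among the strong regions: the highest of 4 peaks within 2 kb of CG5180 had a signal value of 1061 (rank 577). The eye colour gene w, a common transgene marker, had a peak of 350.5 (rank 2332).

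The strong regions were spaced widely, with a few clusters. The median gap from a strong region to the next strong region was 87384 bp, and 51 of 279 (18.3%) had another within 10 kb. In the other blocks of 313 peaks by rank, the median gap lay between 81227 and 126650 bp and the share within 10 kb between 8.63% and 19.7%, so the spacing of strong regions was within the range of the list. The other blocks formed 306 to 313 regions each, against 279 here, and strong peaks are wider. Both bear on the gaps, so the blocks are not fully alike. The median gap in the replicates was 86942, 84739 and 83695 bp (85125 ± 1658, SD, n = 3). With gaps of at most 20 kb, 206 strong regions stood alone, 26 clusters held 2, 3 clusters held 3 and 3 clusters held 4.

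The clusters of 4 lay at vri, at twz and at mam. At vri (chr2L:5288424-5307167), 4 strong regions spread over 18744 bp had signal values of 24672, 18051, 14026 and 10326, and 3 of them lie within the gene. Those at twz and CG30222 (chr2R:21571008-21586249) reached 20188, and those at mam and CG18371 (chr2R:14006359-14030682) reached 8893. The clusters of 3 lay at zormin and CG15822, at Ca-beta and ab, and within 8834 bp at tara. Genes that hosted 3 or more strong regions were mam (4), vri, kirre, Tlk, tara and bbg (3 each).

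Strong regions had a close neighbour more often than other regions when gaps between region edges were counted. Another separate region of the list lay within 2 kb of 159 of 279 strong regions (57.0%, Wilson 95% interval 51.1 to 62.7), against 1758 of 4520 other regions (38.9%), and the odds ratio was 2.08 (exact p = 3.53e-09, Fisher's test). The replicates gave 58.2%, 54.8% and 52.9%, against 38.6%, 36.9% and 37.3%. Edge-to-edge gaps depend on the widths of the regions, and between summits the shares were 36.2% and 32.5% and did not pass the threshold (log2 odds ratio 0.24, exact p = 0.212; this measure was added after the data were seen). No chromosome arm passed the threshold either: X held 54 strong peaks (17.3%), against 17.9% of the rest (exact BH p = 0.984 over 6 arms), and chromosome 4 held 0 of 313, against 0.295% of the rest.

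The DNA at strong summits had its own word content. All 8192 7-base words, each counted with its reverse complement, were compared within 100 bp of the summit, and 349 passed the threshold of 0.05 (4.26%, two-sided Fisher's exact test, BH over all words), of which 246 were more frequent at strong summits (3.00%) and 103 less (1.26%). The word with the smallest p was ATGTTCG, found at 86 strong summits (27.5%), against 2.97% of the rest (odds ratio 12.4, exact BH p = 3.28e-45). ATCGAAC followed with 29.7% against 4.21% (odds ratio 9.63, exact BH p = 6.35e-42) and TCGAACA with 28.8% against 4.11% (9.42, BH p = 2.97e-40). In windows of the same length around all 19252 protein-coding TSSs, these 3 words occurred in 2.4%, 3.47% and 3.00%. In 664860 windows tiled over the chromosome arms the shares were 1.95%, 2.18% and 2.26%. The words overlap each other, and all 3 hold CGAAC on one strand.

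The shared word CGAAC was therefore followed on its own, as a description, since it was picked from those tests. It lay within 100 bp of 243 strong summits (77.6%), of 40.3% of the next 313, of 31.5% of the rest and of 26.2% of the 24600 peaks of the pooled list that are below the IDR list. Around TSSs in general the share was 32.4% and over the tiled arms 23.7%. In the replicates' own strongest 313 peaks it was 77.0%, 76.4% and 77.3% (76.9% ± 0.488, SD, n = 3), against 31.3%, 31.0% and 31.1% in their next peaks. The excess was present at strong promoter summits (80.9% against 39.6%) and outside promoters (74.2% against 28.1%). The replicates' strongest peaks are largely the same regions, read on the same reference genome, so their shares largely recount the same sequences. In the pooled list the word was present at most strong summits, at promoters and outside them. Its share in the other blocks of 313 peaks was 25.6% to 40.3%.

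**Figure D4:**
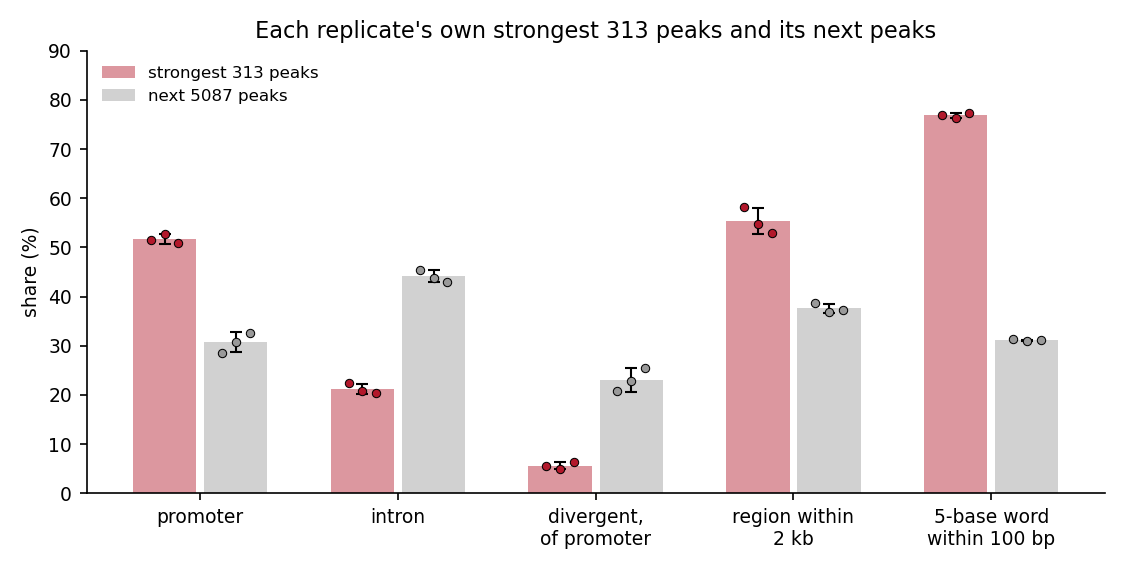
Shares in % in each replicate's own strongest 313 peaks and its next 5087 peaks, with points for the 3 replicates and bars for their means, for promoter and intron summits, divergent promoters among promoter summits, another region within 2 kb, and the word CGAAC within 100 bp. In all 3 replicates the strongest peaks are higher for promoters, neighbouring regions and the word (77.0%, 76.4% and 77.3% against 31.3%, 31.0% and 31.1%), and lower for introns and divergent promoters. The strongest peaks are largely the same regions in each replicate.

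Copies of the word were concentrated at the summit itself. Within 25 bp of strong summits there were 11.4 copies per kb, and the density was 10.6 at 25 to 50 bp, 6.39 at 75 to 100 bp, 3.32 at 100 to 150 bp and 1.63 at 300 to 400 bp, near the 1.42 of the chromosome arms as a whole. At the next 313 summits the density within 25 bp was 4.35, and at the rest 2.63. The number of copies also varied with strength among the strong peaks. Within 250 bp their mean number was 1.9 for signal values of 2000 to 4000, 2.58 for 4000 to 8000, 3.8 for 8000 to 16000 and 4.09 for 16000 or more. Strong peaks with 5 or more copies (61 peaks) had a median signal value of 12535 and a median width of 1533 bp, whereas the 28 with none had 2771 and 713 bp. Spearman's rank correlation between copies and signal value was 0.445 over 313 strong peaks and 0.071 over the 5087 of the rest. The peaks share libraries and their copies share base composition.

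**Figure D5:**
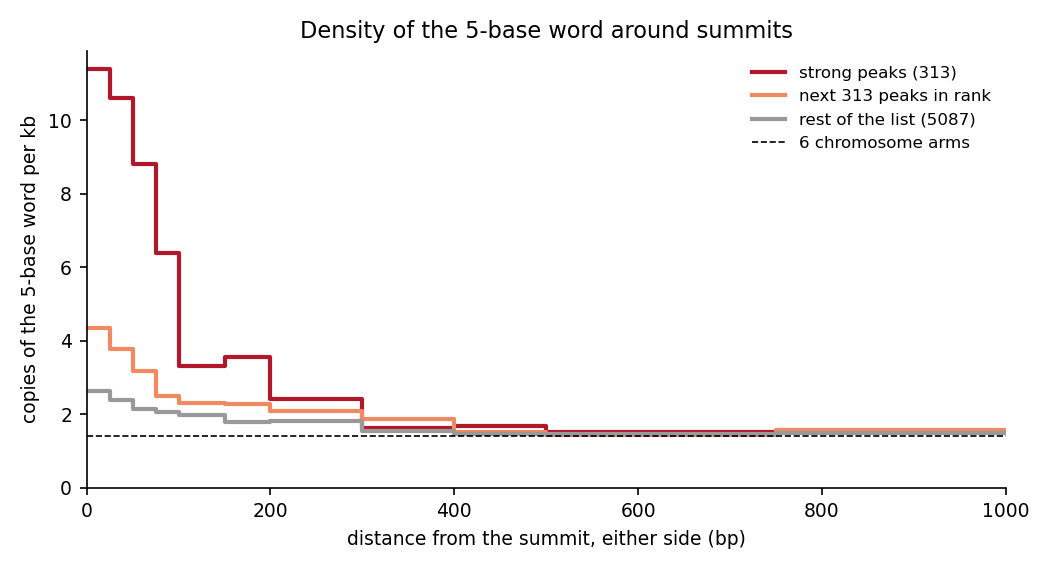
Copies of the word CGAAC or GTTCG per kb by distance from the summit in bp, for the 313 strong peaks, the next 313 peaks and the rest of the list, with the density over the 6 chromosome arms as a dashed line. The density at strong summits is 11.4 copies per kb within 25 bp, against 4.35 at the next 313 and 2.63 at the rest, and all 3 groups come near the genome level of 1.42 beyond 300 bp.

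Read the other way, of 140 IDR peaks with 5 or more copies within 250 bp, 43.6% were strong, and of 2127 with no copy 1.32% were. The strong peaks with the most copies within 250 bp were those at bru3 and the 5′ UTR of orb, with 11 each, at the adenylyl cyclase gene Ac13E with 10, and in Smr and near CG3655 with 9. Among the 25 strongest peaks 24 had at least 1 copy within 250 bp, including those at sgl and net, which have none in the 151 bases printed and 4 each within 250 bp. The exception was CG14441 (signal value 33312). Neighbouring copies were often close: of 600 neighbouring pairs within 250 bp of strong summits, 271 (45.2%) started at most 20 bp apart, and 325 pairs had the same orientation, 144 faced each other and 131 faced away.

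A second kind of word, the palindrome AACATGTT, accompanied the first. It lay within 100 bp of 20.8% of strong summits, 5.11% of the next 313, 1.99% of the rest, 0.701% of TSS windows and 0.512% of the tiled windows. In the replicates its share was 20.1%, 19.5% and 20.4%, against 2.2%, 2.12% and 1.79%. The longer word AACATGTTCG, in which the end of the palindrome overlaps the start of GTTCG, lay within 250 bp of 47 strong summits (15.0%) and 30 of the rest (0.59%), and AACATGTTGC lay near 46 (14.7%) and 88 (1.73%). These longer words were likewise chosen after the 7-base words were seen.

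Strong summits were also richer in G and C. Their median GC content within 100 bp was 48.8%, against 39.8% in the rest, and 244 of 313 (78.0%) were above the median of the whole list, against 48.1% of the rest (odds ratio 3.82, two-sided Fisher's exact test, p = 1.15e-25). The mean in the replicates' strongest peaks was 47.2% ± 0.0741 (SD, n = 3), against 40.6% ± 0.277. GC content and the word move together, so the word was counted at each level. Among summits above the list median of GC, 88.1% of 244 strong ones had CGAAC within 100 bp, against 45.0% of 2447 others, and among those at or below it 40.6% of 69 strong ones did, against 19.0% of 2640 others. Within the strong peaks, Spearman's rank correlation between GC content and signal value was 0.106.

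Of 20 known motifs sought within 100 bp of the summit, 5 passed the threshold. The GAGA factor word GAGAGAG lay at 33 strong summits (10.5%), against 6.51% of the rest (exact BH p = 0.04 over 20 motifs), 4.69% of TSS windows and 2.45% of tiled windows. The word also lay at 9.58% of the next 313 summits in rank, close to its share at strong summits. At promoter summits alone it did not pass and its direction was turned round (7.41% against 7.86%). Outside promoters it passed (13.9% against 5.93%, exact BH p = 0.00416). It missed the threshold at a signal value of 4000 (exact BH p = 0.529) and within 250 bp of the summit. The same held when only pooled peaks found in both other replicates were kept, for each replicate in turn (exact BH p = 0.0577, 0.0594 and 0.057). That filter left fewer peaks of the rest and took no replicate out of the pooled values. The 4 others were less frequent at strong summits and rich in A and T. The TATA box word TATAAA lay at 14.7%, against 26.3% of the rest (exact BH p = 3.81e-05; TSS windows 26.9%, tiled windows 21.8%), and the Caudal word TTTATG at 10.2%, against 19.9% (BH p = 8.67e-05; 14.4% and 20.2%). The GATA word AGATAAG lay at 1 strong summit (0.319%), against 2.89% (exact BH p = 0.0107; 2.66% and 2.33%), and a run of 8 A at 6.39%, against 12.0% (BH p = 0.0107; 10.5% and 10.6%). Strong summits have a lower AT content, and its part in these 4 results was not tested. At promoter summits alone only TATAAA passed (exact BH p = 0.00528), and TTTATG did not (11.1% against 16.6%, exact BH p = 0.289). The AGATAAG and A run results did not pass at promoter summits alone, outside promoters alone, within 50 bp of the summit or at a threshold of 1000 (exact BH p = 0.193 and 0.165). AGATAAG also missed the threshold at a signal value of 4000 (exact BH p = 0.127), and the A run within 250 bp (exact BH p = 0.723).

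The other 15 motifs did not pass, with exact BH p from 0.0821 to 1. They were those of Zelda (CAGGTA), DREF (TATCGATA), BEAF-32 (CGATA), Pho (GCCAT), E-box proteins (CANNTG), AP-1 (TGANTCA), Grainyhead (ACCGGTT), Stat92E (TTCNNNGAA), Vrille (TTATGTAA), Tramtrack 69 (AGGATAA), Ets proteins (CCGGAAG) and the initiator (TCAGTT), and repeats of CA, AT and CAG. DREF, whose palindrome holds the BEAF-32 word, was found at 0 of 313 strong summits, against 1.14% of the rest. The Wilson interval of the strong share reached up to 1.21% (counting error only), so it includes the share of the rest. At promoter summits alone DREF was found at 0 of 162 strong summits, against 3.3% of 1514 others. That interval reached up to 2.32%, below the share of the others, but DREF did not pass there (exact BH p = 0.118). The initiator word lay at 18.8% of strong summits and 15.0% of the rest. With a signal value of 4000 as the limit, BEAF-32 (15.4% against 24.5%, exact BH p = 0.0131), AP-1 (0.513% against 4.42%, BH p = 0.0131) and the initiator (22.6% against 14.9%, BH p = 0.0192) passed. BEAF-32 also passed with only the strongest of overlapping peaks (exact BH p = 0.0483) and within 250 bp of the summit (BH p = 0.0363). All motifs were sought on both strands, and a match is not a site shown to be in use.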

How the data were processed

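CG5180-GFP ChIP-seq was deposited as 5 peak lists on dm6, 1 per replicate, 1 pooled and 1 IDR list, and as the same lists on dm3, from which only the IDR list was used, for counts and widths. Per the notes deposited with each library, each replicate was called from its own alignments with 1 further alignment file, the pooled list from those of all 3 with that file, and both kinds of list went into the IDR list. Which aligner, peak caller and IDR threshold were used is not given in the sources used here. Signal values are a score from the authors' caller without a fixed range, deposited together with a −log10 q-value per peak. Neither was compared between lists. Read depth is unknown. Intervals are Wilson 95% intervals and cover counting error only. Replicates are given as biological in the labels.

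Coordinates are 1-based on dm6. Gene models were those of Ensembl release 115 and sequences those of genome release 6, on arms 2L, 2R, 3L, 3R, 4 and X. Summits up to 250 bp from any protein-coding TSS were promoter summits, and others took the first class that applied of UTR (5′, then 3′), coding sequence, remaining exons, introns and intergenic DNA. Overlapping peaks were merged into regions for spacing. Shares were compared by two-sided Fisher's exact tests with BH adjustment over 4 feature classes, 6 arms, 20 motifs or 8192 words and a threshold of 0.05. With 1 group, no test compares samples, so each replicate's own strongest 313 peaks and its next 5087 give the spread. These strongest peaks are largely the same regions in each replicate, so the spread is not that of independent sets of regions. Gene lists held 332 symbols, of which 323 were found. The symbols Dl, nct, nos, h, Hr46, elk, calypso, lid and Zw5 were not found, so these genes were not looked up or counted. Python 3.11.15 was used with numpy 2.4.6, pandas 2.3.3, scipy 1.17.1 and matplotlib 3.10.9, and the tests were checked on simulated data.

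The members, gene lists and motifs were chosen with earlier results of these data known. The naming rule takes the nearest gene and intron host of the 25 strongest peaks, 5 peaks on each side of the threshold, the 5 widest and 5 narrowest, list members with a strong summit at a TSS, the 5 strongest per feature, genes of clusters or hosts with 3 or more strong regions, 5 peaks at each end of rank agreement, CG5180 and w; results for some genes it takes are not reported here. Other genes (those of regions with several strong summits, divergent promoters, list members with a strong summit away from a TSS, Ryk receptors, daw, transcription factor genes outside the lists and peaks printed or ranked for their words) were chosen after their values were seen. Alternatives were other thresholds, windows and TSS sets, only the strongest of overlapping peaks, subsets by promoter, and leaving out each replicate, and, added after the data were seen, the comparison with only the next peaks in rank for words, GC content and divergent promoters, windows without soft-masked bases, summit distances and the alternatives for spacing.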

Additional observations from a re-analysis of the deposited data

How the results depend on the processing

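The share of promoters against the rest, the shares of introns, divergent promoters and GC-rich summits kept their direction and their side of the threshold at thresholds of 1000 and 4000 and with TSS windows of 100 and 500 bp, where these were run. They also did so with the filter by replicate. Pooled signal values still chose the strong peaks there, and 312 of 313 stayed each time. The strong side could thus hardly change, and this filter cannot show that a result is independent of a replicate. Against only the next peaks in rank the log2 odds ratio of promoters was 0.37, not past the threshold, against 1.34. With distances between summits that of neighbouring regions was 0.24, not past it, against 1.06, and the filter by replicate gave 0.78 to 0.82. The median width was 710 bp at a threshold of 1000 and 1369 bp at 4000, genes with a strong summit at a TSS numbered 311 at 1000 against 164, and the median gap between strong regions was 39832 bp at 1000 and 102339 bp at 4000, as more or fewer peaks were taken. Motifs past the threshold numbered 3 at a threshold of 1000, 3 within 50 bp, 1 at promoter summits only and 3 outside promoters only, against 5. The log2 odds ratio of the GAGA factor word turned to -0.0926 at promoter summits only, against 0.76; the cause was not tested. Of 8192 words, 222 passed at a threshold of 1000, against 349 in the main comparison. Against only the next peaks in rank 38 passed, at promoter summits only 86 and outside promoters only 90. With no soft-masked base within 100 bp 29 passed. These subsets hold fewer peaks. With the filter by replicate 316 to 345 passed. For words and GC content these comparisons were chosen after the data were seen, apart from those by threshold, promoter and replicate. All samples form 1 group, so no test compared groups. Strong and other peaks were set side by side within each replicate, and no paired test was made on them. Read depth is unknown, so precision beyond counts of peaks cannot be given, and with no control library analysed here the strength of a peak cannot be set against its background.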

Other observations

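Strong summits were also sought at genes for RNAs that are not translated. Of 3261 non-coding RNA genes 13 had one within 250 bp of a TSS (0.399%), a smaller share than the 1.18% of protein-coding genes, with no test made. The strongest was at lncRNA:CR43650, whose start lies under the strongest peak of the list, near CG34460 (signal value 50504), with another strong summit in the same interval (15811). Others lay at asRNA:CR45623, within the interval of Smr (17021), at lncRNA:CR32111 near the Iroquois gene caup (12310) and at lncRNA:CR46036 near CG31249 (12120). Of 290 tRNA genes 1 did (0.345%), tRNA:Cys-GCA-1-3 in the intron of Cht7 (19296), which is 1 of the 28 strong peaks without CGAAC within 250 bp.

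The 28 strong peaks without that word within 250 bp had a median signal value of 2771 and a median GC content of 41.3%. They include CG14441 (33312), PIG-Z (15747), CG11686 (10599), CG5013 (7609) and kug, an atypical cadherin gene (7062), and, among the weaker members, the housekeeping genes Gapdh2 (2505) and mRpL41 (2248). At the copies of CGAAC near strong summits, the base just before the word was T in 49.8% of cases, A in 16.3%, C in 13.5% and G in 20.4%. These frequencies describe a word chosen from the same summits.

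The decamer half-site of p53-family proteins, sought after the words were seen, occurred within 100 bp of 10.5% of strong summits, 5.75% of the next 313, 4.46% of the rest, 3.25% of TSS windows and 3.58% of tiled windows. Soft-masked bases of the reference lay within 100 bp of 229 strong summits (73.2%) and of 4201 of the rest (82.6%). An annotated transposable element lay within 500 bp of 11 strong summits (3.51%) and of 80 of the rest (1.57%). These shares are given as a description.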
